A study of Mus musculus with 4 samples.

Results

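The cluster of miR-221 and miR-222 was examined through 4 of the 1966 mature miRNA listed in each count table, both arms of each hairpin, which the tables name mmu-miR-221-3p, mmu-miR-221-5p, mmu-miR-222-3p and mmu-miR-222-5p. They were chosen by name, and all 4 passed the filter on low counts that left 496 miRNA for testing. The libraries held small RNA from primary neurons that were taken from the cortex of E16.5 mouse embryos, WT or TgAD, and cultured for 5 days in vitro without treatment, with 2 libraries per genotype. The TgAD (APP/PS1 mutant) line, B6C3-Tg APPswe, PSEN1dE9 85Dbo/J, holds a pair of transgenes, APP in a mouse/human form with the Swedish mutations and human presenilin 1 without one of its exons. Their promoter comes from the mouse prion gene and is active mostly in neurons of the brain and spinal cord. WT neurons carry neither transgene. According to the study's methods, neurons of each mouse embryo were plated separately and genotyped later to tell WT from TgAD, so that a replicate is an embryo. The sex of the embryos is not given in the sources used here. The question of the comparison was which miRNA differ between neurons that produce amyloid peptide and WT neurons.

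A miRNA hairpin is cut into a duplex of a 5p and a 3p arm, one of which is usually kept as the guide in Argonaute while the other is mostly lost. In miR-221 and miR-222 the 3p arm is the guide. Both guides share a seed, the bases that pair with the target mRNA, and they are known for repressing p27 (Cdkn1b) and p57 (Cdkn1c), inhibitors of cyclin-dependent kinases that hold cells in G1. High levels of the pair are typical of proliferating and vascular cells and of glioma, and neurons that re-enter the cell cycle can die by apoptosis, the process the study addressed.

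RefSeq (GRCm38.p6) held a mature sequence for 3 of the 4 members, miR-221-3p, miR-221-5p and miR-222-3p. They are shown 5′ to 3′ with the seed, bases 2 to 8, in capitals, because the shared seed is what joins the guides.
miR-221-3p: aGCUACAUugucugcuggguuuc
miR-222-3p: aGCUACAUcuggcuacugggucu
miR-221-5p: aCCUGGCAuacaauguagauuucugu
Both guides were 23 nucleotides long, identical over the first 8 bases and in the same base at 11 of the 23 positions. They thus differ at 12 positions, which lets reads that match without mismatch be told apart. Each of the 3 sequences occurred in 1 annotated hairpin of the mouse. Another mouse miRNA in RefSeq, miR-1928, carries the seed of the guides, and it had 0 reads in all 4 libraries, against a floor of 3 reads taken as the limit of detection. No other mature miRNA in RefSeq shared the seed of miR-221-5p.

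The hairpins are shown next, since both guides come from one stretch of chromosome X. Arms with a mature sequence are in capitals.
Mir221 hairpin: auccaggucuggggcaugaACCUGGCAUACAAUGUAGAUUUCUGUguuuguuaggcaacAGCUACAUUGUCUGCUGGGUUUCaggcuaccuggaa
Mir222 hairpin: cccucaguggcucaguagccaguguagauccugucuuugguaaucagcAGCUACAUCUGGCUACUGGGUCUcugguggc
In GRCm38 the hairpin of Mir222 (ENSMUSG00000065471.1) lies on the minus strand of chromosome X from 19146893 to 19146971, upstream of that of Mir221 (ENSMUSG00000065422.1) from 19146294 to 19146388. The hairpins are 504 bases apart and span 678 bases in all. GENCODE M21 annotates no other gene over this stretch. The nearest one, Gm14636, a noncoding transcript on the same strand, lies upstream of Mir222 with its nearer end 10010 bases away.

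The targets for which the guides are known were searched for the seed match ATGTAGC on the mRNA strand of the longest annotated 3′ UTR. It occurred 1 time in Cdkn1b (chr6:134924431-134924437, plus strand) and 1 time in Cdkn1c (chr7:143458926-143458932, minus strand), both followed by an A. The match stands in capitals with its flanks.
Cdkn1b: atctgcctctaaaagcattggATGTAGCat
Cdkn1c: ttcggctgggacctttcgttcATGTAGCag
The same letters were found in 9.45% of 21022 genes with a 3′ UTR, in 23.2% of the 988 genes with a 3′ UTR within 10% of the length of that of Cdkn1b, and in 4.97% of the 1087 genes close in length to Cdkn1c. These matches are a description of the sequence, and the mRNA of neither gene was measured in these libraries.

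The count tables summed to between 2070204 and 4811010 reads per library, and reads were found for 849 to 936 of the listed miRNA. A single miRNA, miR-99a-5p, accounted for 15.8% and 16.7% of WT reads and for 26.98% and 31.8% of TgAD reads, so that the way of scaling the libraries bears on every level. Of the 8 miRNA taken as neuronal markers, 5 were tested. Of these, miR-128-3p and miR-132-3p were called higher in TgAD neurons, as were 15.7% of all tested miRNA. The other neuronal markers tested, miR-138-5p (log2 fold change -0.63), miR-218-5p (0.35) and miR-129-5p (0.20), were not called. The summed level, mostly miR-128-3p, was 22071 and 35919 CPM for WT against 88224 and 63411 CPM for TgAD. However, miR-9-5p and miR-9-3p were at 0 reads and miR-124-3p, usually abundant in neurons, was at 0.43 to 2.55 CPM. Among other cell types, all 3 oligodendrocyte markers and both arms of the endothelial miR-126a were at 0 reads. Because the neuronal markers miR-9-5p and miR-9-3p were at 0 reads too, a marker at 0 need not mean that its cell type was absent. The summed level of the 4 vascular markers was 718 to 901 CPM in WT and 756 to 827 CPM in TgAD libraries. That of the 3 glia and inflammation markers was 18067 to 23314 CPM in WT and 14787 to 15986 CPM in TgAD libraries. None of the vascular, glia and inflammation markers tested was called, beside 33.1% called over all tested miRNA. The 4 white blood cell markers, with miR-142a-3p at 0 reads, summed to 10.6 to 11.0 CPM in WT and 14.6 to 16.2 CPM in TgAD libraries. The 4 pluripotent cell markers, with miR-367-3p at 0 reads, summed to 3.83 to 6.53 CPM in WT and 2.92 to 4.48 CPM in TgAD libraries. The 2 erythroid markers summed to 1310 to 1331 CPM in WT and 646 to 957 CPM in TgAD libraries. Of them, miR-451a was called lower in TgAD neurons, as were 17.3% of all tested miRNA. The part of these markers in the values below was not tested.

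The deposited tables disagree on the identity of the libraries. In the deposited normalized table, whose values were turned back into whole reads, none of the 4 columns held the reads of the count table for which it is named. The column named for WT replicate 1 held the reads of the count table of TgAD replicate 1 for 100% of its miRNA, that for WT replicate 2 those of WT replicate 1, and that for transgenic replicate 1 those of TgAD replicate 2. The remaining column equalled none of the count tables (at most 4.45% of its miRNA). The count tables, which carry the sample labels, were used here, and the differences are also given without the library labelled TgAD replicate 1, the one that the normalized table puts in the other genotype.

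The guide of miR-221 was the most abundant member in every library. WT libraries held 2390 and 3729 reads of miR-221-3p, and TgAD libraries 1906 and 4401. As a level in CPM, a count scaled to library size by edgeR's TMM method, this was 1017 and 1281 for WT against 695 and 1094 for TgAD. TgAD replicate 1 was the lowest, and TgAD replicate 2 lay between the WT libraries. By reads, miR-221-3p ranked between 71 and 102 among the listed miRNA. Its mean level (± SD, n = 2) was 1149 ± 186 CPM for WT and 895 ± 283 CPM for TgAD.

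WT libraries held 823 and 1315 reads of miR-222-3p, and TgAD libraries 1088 and 2783, which gave levels of 350.3 and 452 CPM for WT against 397 and 692 CPM for TgAD. TgAD replicate 2 was the highest, and TgAD replicate 1 lay between the WT libraries. The mean level (± SD, n = 2) was 401 ± 71.7 CPM for WT and 544 ± 209 CPM for TgAD, and miR-222-3p ranked between 103 and 149 by reads.

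The passenger arms were less abundant. Of miR-221-5p, WT libraries held 340 and 599 reads and TgAD libraries 211 and 573, which gave levels of 145 and 206 CPM for WT against 76.9 and 142 CPM for TgAD. The levels of the genotypes did not overlap, TgAD replicate 2 lying just under WT replicate 1. Groups that did not overlap in either direction were found for 63.1% of the tested miRNA, so that this is the more common state. Of miR-222-5p, WT libraries held 25 and 61 reads and TgAD libraries 35 and 43, which gave levels of 10.6 and 20.95 CPM for WT against 12.8 and 10.7 CPM for TgAD. These levels overlapped, and WT replicate 2 stood above the other 3 libraries. The mean levels (± SD, n = 2) of WT and TgAD were 175 ± 43.1 and 109.7 ± 46.4 CPM for miR-221-5p, and 15.8 ± 7.29 and 11.7 ± 1.46 CPM for miR-222-5p.

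Mature miRNA are of nearly the same length, so the arms were ordered by CPM without a correction for length. The order is one of reads, and whether reads of different arms stand for equal numbers of molecules was not tested. The order miR-221-3p, miR-222-3p, miR-221-5p, miR-222-5p held in all 4 libraries. The ranges of neighbours in this order did not overlap, although those of the guides nearly met, at 692 CPM for the highest library of miR-222-3p and 695 CPM for the lowest of miR-221-3p. The plot of levels by library shows the wider gaps between the guides and the 5p arms.

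**Figure D1:**
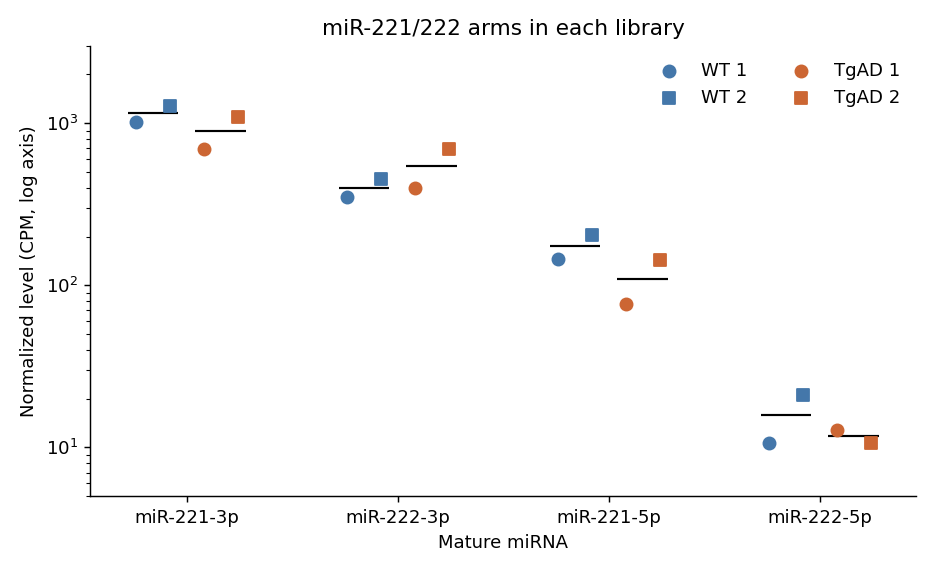
Normalized level of each miR-221 and miR-222 arm in CPM (log axis) in the 2 WT and 2 TgAD libraries. Points are libraries and lines are group means, which run from 1149 CPM for miR-221-3p to 15.8 CPM for miR-222-5p in WT, and WT and TgAD points overlap for every arm but miR-221-5p.

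None of the members passed the test for a difference between genotypes. Calls were made at the study's cutoffs, a log2 fold change over 0.6 in size with an adjusted p under 0.1, here by the quasi-likelihood test of edgeR and adjustment by Benjamini-Hochberg over all tested miRNA. With these, 0 of the 4 members were called, 0 had an unadjusted p under 0.05 (36.9% of all tested miRNA did), and DESeq2 called 0 as well, although its unadjusted p was under 0.05 for 1 of them, miR-221-5p. Over all tested miRNA 33.1% were called, 17.3% lower and 15.7% higher in TgAD neurons.

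For miR-221-3p, the log2 fold change was -0.36 (SE 0.27, edgeR adjusted p = 0.376). Its 95% interval ran from -1.01 to 0.29, so that both a fall to 0.496 of the WT level and a 1.22-fold rise lie within it. Without TgAD replicate 2 it was called, at -0.70 (edgeR adjusted p = 0.0854, within a range of 0.0847 to 0.934 over its alternatives), and without TgAD replicate 1 it was -0.17.

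miR-222-3p moved the other way, with a log2 fold change of 0.44 (SE 0.30, edgeR adjusted p = 0.340) and a 95% interval from -0.29 to 1.18. It was 0.012 without TgAD replicate 2 and 0.69 without TgAD replicate 1. The correction for GC content lowered it to 0.25, and total counts as library size lowered it to 0.15, and neither was called.

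The log2 fold change of miR-221-5p, the passenger arm with few assigned functions, was -0.67 (SE 0.35, edgeR adjusted p = 0.217), with a 95% interval from -1.51 to 0.16. It passed the cutoff on size and not the one on p. It was called without WT replicate 1, at -0.89, and without TgAD replicate 2, at -1.16, and was -0.40 without TgAD replicate 1. It was also called with the replicate number as a block, at -0.72 (edgeR adjusted p = 0.0206), with total counts as library size, at -0.96, and with no filter on low counts, at -0.71 (adjusted p between 0.0206 and 0.997 over its alternatives). With a correction of each library for the GC content of the mature sequence, it shrank to -0.14 and was not called. The GC content was 38.5% for miR-221-5p against 47.8% and 52.2% for the guides of miR-221 and miR-222.

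The log2 fold change of miR-222-5p, the rarest member, was -0.45 (SE 0.40, edgeR adjusted p = 0.451), and its 95% interval ran from -1.42 to 0.52. It became 0.12 without WT replicate 2, so that its direction was not determined. Without TgAD replicate 1 it was -0.68.

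Ranked by the size of the log2 fold change among the 496 tested miRNA, miR-221-5p stood at 204, miR-222-3p at 286, miR-222-5p at 282 and miR-221-3p at 320. The median size over all tested miRNA was 0.53 on the log2 scale, which only miR-221-5p exceeded. In the plot of signed fold changes, miR-221-5p lies below the lower quartile of all tested miRNA (-0.53). The other members lie between it and the upper quartile (0.53).

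**Figure D2:**
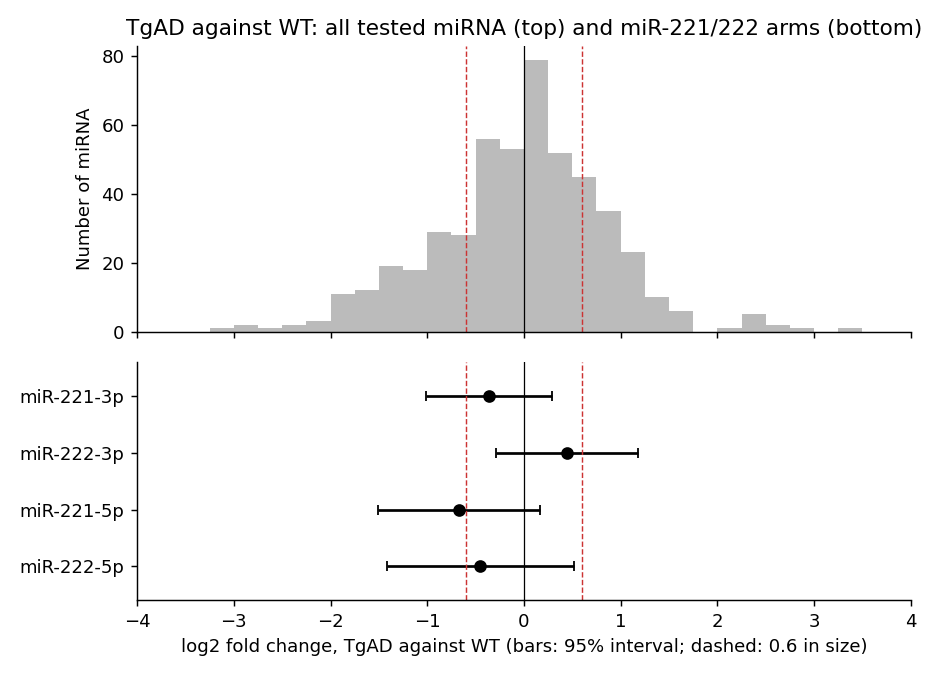
Histogram of log2 fold changes, TgAD against WT, of the 496 tested miRNA (top, 1 miRNA lies outside the axis) and the values of the miR-221 and miR-222 arms with 95% intervals (bottom), with dashed lines at 0.6 in size. All 4 intervals include 0, from -1.01 to 0.29 for miR-221-3p and from -0.29 to 1.18 for miR-222-3p.

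The guides were read in the same library, so their ratio does not depend on how libraries are scaled. miR-222-3p made up 25.6% (95% Wilson interval 24.1 to 27.2) and 26.1% (24.9 to 27.3) of the reads of both guides in the WT libraries. In the TgAD libraries it made up 36.3% (34.6 to 38.1) and 38.7% (37.6 to 39.9). The intervals overlapped within a genotype and not between genotypes. Each interval rests on the reads of a single library, so it covers counting error only and not the variation between embryos. The reads have no molecular identifiers, so repeated reads of a molecule are not told apart.

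Written as a ratio, there were 0.344 and 0.353 reads of miR-222-3p per read of miR-221-3p in WT and 0.571 and 0.632 in TgAD libraries. The log2 ratio was 0.79 higher in TgAD neurons (SE 0.36, 95% interval 0.025 to 1.55), a 1.72-fold difference. It was tested with limma over 74 pairs of neighbouring hairpins within 10 kb on a strand, and gave an adjusted p of 0.0958, under the threshold of 0.1. Such a difference was common, since 47.3% of these pairs were called. In an exact permutation test of this ratio alone, p was 0.333 (two-sided), the smallest that 2 against 2 libraries can give. The size of the difference stayed between 0.71 and 0.86 with each library left out in turn, but with any of the 4 libraries removed it was no longer called (adjusted p from limma 0.118 to 0.465). Without TgAD replicate 1 it was 0.86.

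Summed over both guides, which carry 1 seed, the level was 1368 and 1732 CPM for WT against 1091 and 1786 CPM for TgAD. The WT libraries lay between the TgAD libraries, so the pool of this seed showed no separation of the genotypes. The mean (± SD, n = 2) was 1550 ± 258 CPM for WT and 1439 ± 492 CPM for TgAD.

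Within the miR-221 hairpin, the 5p arm made up 12.5% (95% Wilson interval 11.3 to 13.7) and 13.8% (12.8 to 14.9) of reads in WT and 9.97% (8.76 to 11.3) and 11.5% (10.7 to 12.4) in TgAD libraries. The TgAD libraries were lower, but the interval of WT replicate 1 overlapped those of both TgAD libraries. With TgAD replicate 1 the overlap was narrow, from 11.27% to 11.32%. The log2 ratio of 5p to 3p differed by -0.33 (SE 0.30, 95% interval -1.06 to 0.40, adjusted p = 0.451 from limma over 138 hairpins with both arms tested), and by -0.22 without TgAD replicate 1.

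Within the miR-222 hairpin, the 5p arm made up 2.95% (95% Wilson interval 2.005 to 4.32) and 4.43% (3.47 to 5.65) of WT reads and 3.12% (2.25 to 4.30) and 1.52% (1.13 to 2.04) of TgAD reads. TgAD replicate 2 was the lowest, and TgAD replicate 1 lay between the WT libraries. The log2 ratio differed by -0.75 (SE 0.45, 95% interval -1.85 to 0.35, adjusted p = 0.238 from limma). Without TgAD replicate 1 it was called, at -1.28 (adjusted p = 0.0294, within a range of 0.0294 to 0.778 over its alternatives), and it was -0.22 without TgAD replicate 2 and -0.46 without WT replicate 2. Of the 138 hairpins, 40.6% were called for a change of the arm ratio, and neither hairpin of the cluster was among them.

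Between the 5p arms, miR-222-5p made up 6.85% (95% Wilson interval 4.68 to 9.92) and 9.24% (7.26 to 11.7) of their reads in WT and 14.2% (10.4 to 19.1) and 6.98% (5.22 to 9.27) in TgAD libraries. The genotypes overlapped here, unlike for the guides, and whether the arms differ in this was not tested.

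**Figure D3:**
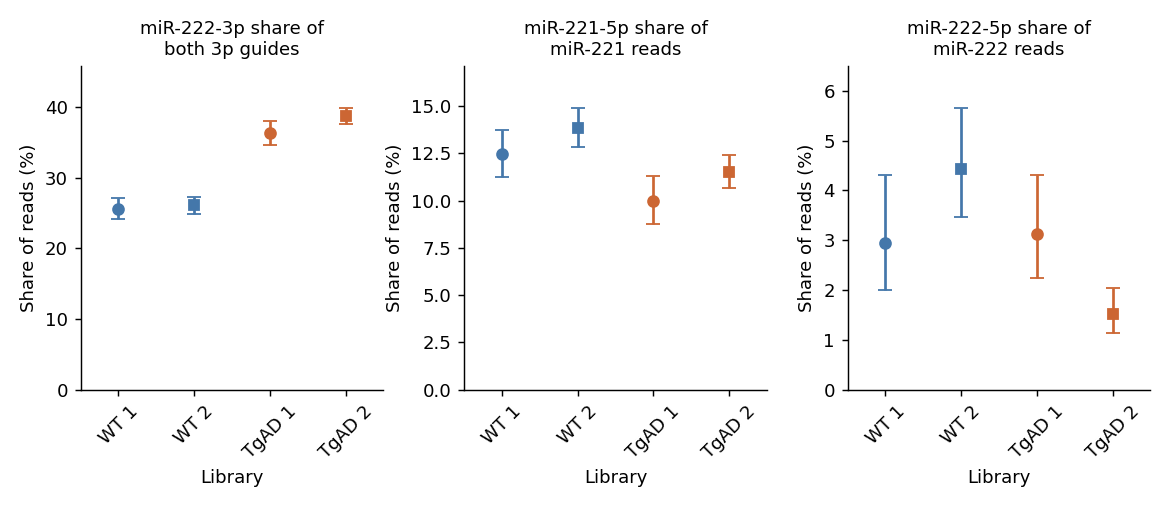
Share of reads (%) taken by miR-222-3p among both 3p guides, by miR-221-5p within miR-221 and by miR-222-5p within miR-222 in each library, with 95% Wilson intervals as bars. The miR-222-3p share is 25.6% and 26.1% in WT and 36.3% and 38.7% in TgAD libraries, whereas some, not all, intervals of each 5p share overlap between genotypes.

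The profiles of the guides over the 4 libraries were also compared with each other and with the other tested miRNA, by the Euclidean distance between log2 CPM values centred on the mean of each miRNA. The distance between both guides was 0.79, and miR-222-3p ranked 159 of the 495 other tested miRNA by closeness to miR-221-3p. The arms of miR-221 were closer to each other, at 0.39. Nearest to miR-221-3p were miR-16-1-3p (distance 0.12), miR-598-3p (0.18) and miR-365-1-5p (0.21), and nearest to miR-222-3p were miR-3057-5p (0.17), miR-409-5p (0.19) and miR-224-5p (0.23). Of these, miR-365-1-5p was low, at 2.19 to 5.15 CPM against a floor of 0.75 to 1.28 CPM. Before the logarithm 2 reads were added to each count, which weighs most on such low levels. With 4 libraries that share their depth and scaling, these distances are a description only.

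Other miRNA linked with the same step of the cell cycle were taken as 2 lists. The first held 12 miRNA linked with repression of p21, p27 or p57, as the guides of the cluster are, and 10 of them were tested. Of these, 1 was called lower, 1 higher and 8 were not called, beside 17.3% called lower and 15.7% higher over all tested miRNA. The median log2 fold change of the list was -0.15 against 0.032 over all tested miRNA. miR-106b-5p, of the miR-17 seed family that represses p21, fell from 3090 and 3981 CPM (WT) to 1116 and 764 CPM (TgAD), a log2 fold change of -1.91. Of the same family, miR-17-5p (log2 fold change -0.26), miR-20a-5p (-0.43) and miR-93-5p (0.20) were not called. miR-148a-3p rose from 26096 and 19580 CPM (WT) to 39022 and 64760 CPM (TgAD), a log2 fold change of 1.18. It lost this call without TgAD replicate 2. miR-152-3p, of the same family as miR-148a-3p, went the other way, at -0.59, and was not called. Also not called were miR-25-3p (0.35), miR-32-5p (0.19), miR-92b-3p (-0.043) and miR-181a-5p (-0.48).

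The second list held 12 miRNA linked with repression of the cyclins and kinases that drive cells from G1 to S phase, and 11 of them were tested. Of these, 7 were called lower, 0 higher and 4 were not called, with a median log2 fold change of -1.13. The 7 called lower included miR-15a-5p (log2 fold change -2.32), miR-16-5p (-1.80), miR-195a-5p (-1.28) and miR-497a-5p (-1.04), which share a seed. The others were miR-34c-5p (-1.49) and miR-449a-5p (-1.13), which share another, and miR-137-3p (-1.53). Not called were let-7a-5p (-0.11), let-7b-5p (-0.23), miR-26a-5p (-0.32) and miR-34a-5p (-0.45). The count of 7 compares with the 17.3% of tested miRNA that were called lower. The lists were drawn up with earlier results of these libraries known and thus give no independent evidence of a direction. Since miR-24-3p and miR-196a-5p were at 0 reads and miR-124-3p was too low, 3 of the 24 miRNA could not be tested.

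**Figure D4:**
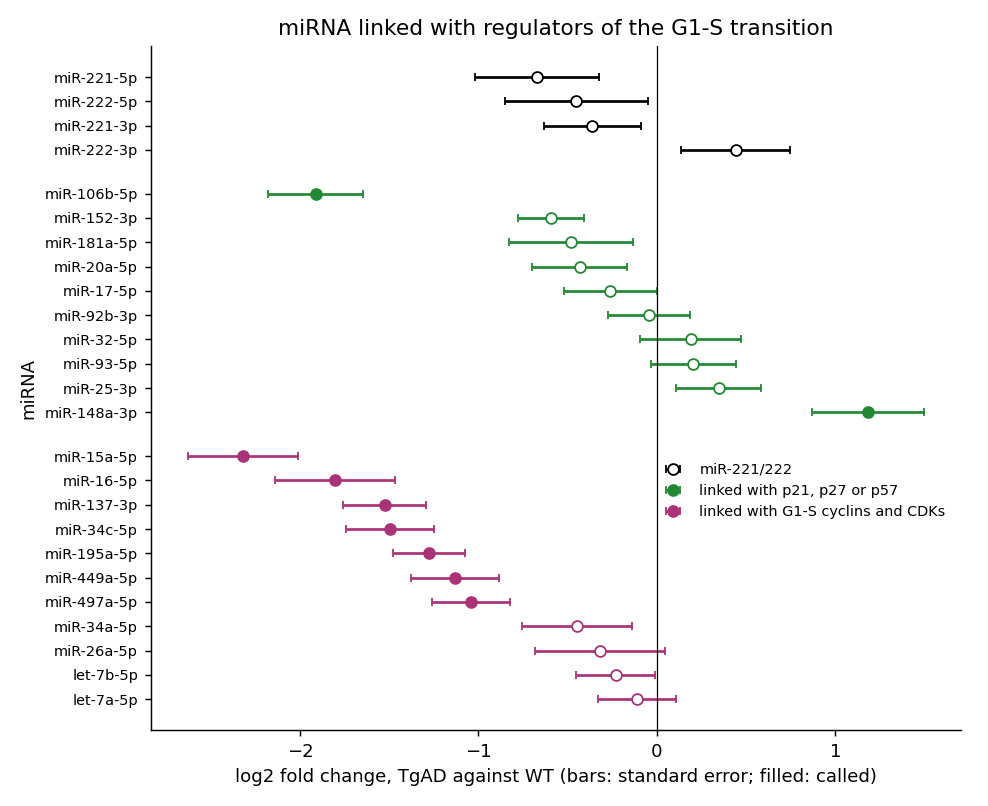
log2 fold changes, TgAD against WT, with standard errors for the miR-221 and miR-222 arms (black), miRNA linked with p21, p27 or p57 (green) and miRNA linked with G1-S cyclins and kinases (purple). Filled points were called. The 4 arms of miR-221 and miR-222 are open, between -0.67 and 0.44, while 7 miRNA of the last list lie between -2.32 and -1.04.

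**Figure D5:**
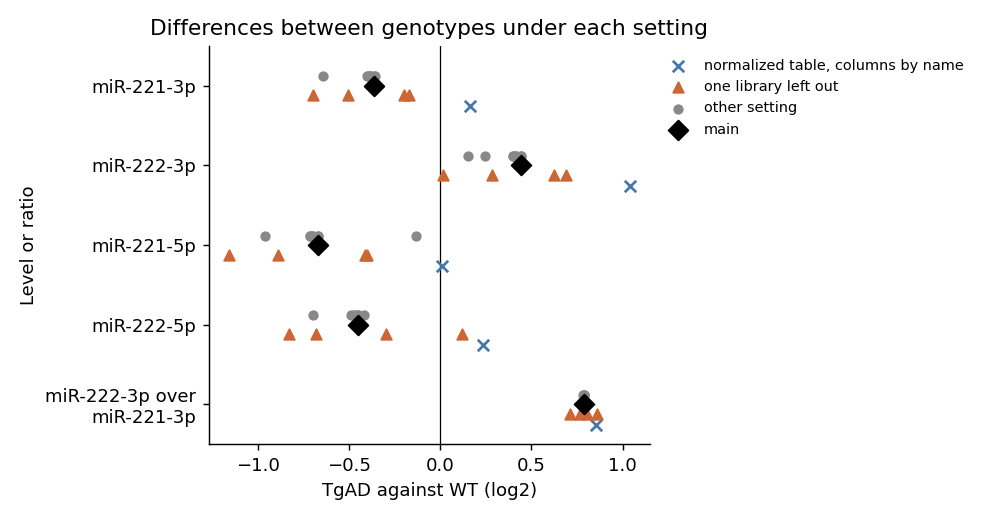
Differences between genotypes (log2) of each miR-221 and miR-222 arm and of the miR-222-3p to miR-221-3p ratio, each under the settings fitted for it. Diamonds are the values reported above, circles other settings, triangles fits without 1 library and crosses the normalized table read with its column names. The triangles run from -0.70 to -0.17 for miR-221-3p and from 0.012 to 0.69 for miR-222-3p, but only from 0.71 to 0.86 for the ratio.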

How the data were processed

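Small RNA of 2 WT and 2 TgAD cultures was sequenced. The authors deposited counts per library, whole reads per mature miRNA without normalization, from adapter-trimmed reads mapped without mismatch to GRCm38 with Bowtie2 and counted with HTSeq-count on the miRBase annotation. How reads with several placements were counted is not given in the sources used here. The normalized table that the authors deposited holds a signal, reads divided by a factor per column. In each column 100% of values were whole multiples of 1 read (tolerance 0.001). It served only to compare tables and in 1 alternative, in which its reads gave 0 calls of miRNA levels.

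Genotypes came from the sample titles. Levels were tested with edgeR 4.0.16 (TMM, filterByExpr, quasi-likelihood, genotype as the only factor) in R 4.3.3, ratios with limma 3.58.1 on log2 values after 0.5 reads were added to each arm. For neighbouring hairpins the more abundant tested arm was used. DESeq2 1.42.0 was an alternative. The members, lists and tests were chosen with earlier results of these data known. The miRNA named were the members, those with the same seed, called members of the lists and the 3 nearest profiles of each guide. Markers were to be named only as sums, lists or at 0. Outside this rule, miR-99a-5p, miR-124-3p, miR-128-3p, miR-132-3p, miR-138-5p, miR-218-5p, miR-129-5p and miR-451a were named after their values were seen. So were miR-24-3p, miR-196a-5p and the uncalled miRNA of both lists. The scripts were tested on simulated counts. Hairpins and UTRs came from RefSeq and GENCODE, and figures from Python 3.11.15.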

Additional observations from a re-analysis of the deposited data

Results flagged for a closer look

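The column of the deposited normalized table that is named for transgenic replicate 2 matched none of the count tables. Of the comparisons made here, only the alternative that reads that table by its column names uses it. It gave 1096 reads of miR-221-3p and 1117 of miR-222-3p, a ratio of 1.02, above the 0.344 and 0.353 of the count tables labelled WT and the 0.571 and 0.632 of those labelled TgAD. The genotype of this column rests on its name alone, and the other columns of that table did not match theirs.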

How the results depend on the processing

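The calls of the 4 arm levels were recomputed under each alternative. Both arm ratios and the guide ratio were recomputed with 2 reads added, a minimum of 10 reads, a variance trend and a replicate block. They were also recomputed with single libraries left out and with the normalized table. The ratios were not fitted with the GC correction. Under it, the log2 fold changes were -0.40 for miR-221-3p and 0.25 for miR-222-3p. With total counts as library size, under which the median of all tested miRNA shifted from 0.032 to -0.23 on the log2 scale, miR-221-3p was called at -0.64 and miR-221-5p at -0.96. Relative to that median they were -0.41 and -0.73, against -0.39 and -0.70 with TMM, and the split of calls moved from 86 lower and 78 higher to 122 and 43. With no filter on low counts miR-221-5p was called at -0.71. RLE normalization, a minimum of 10 reads per library, DESeq2, the robust option and the GC correction added no call to the 4 arms, but the last could not be fitted for miR-222-5p. When single libraries were left out, the log2 differences ran from -0.70 to -0.17 for miR-221-3p, 0.012 to 0.69 for miR-222-3p, -1.16 to -0.40 for miR-221-5p, -0.83 to 0.12 for miR-222-5p, -0.45 to -0.22 for the miR-221 arm ratio, -1.28 to -0.22 for the miR-222 arm ratio and 0.71 to 0.86 for the guide ratio. Such fits assume that the lone library of a genotype varies like the others.

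Replicate numbers recur in both genotypes, but nothing in the labels says that they mark a shared litter or day. Same-numbered libraries deviated together with r = 0.22 over tested miRNA. With a replicate block, 188 miRNA were called in place of 164, among them miR-221-5p at -0.72 (adjusted p = 0.0206 from edgeR, within a range of 0.0206 to 0.997), and no other call of a member or of the ratios changed.

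The normalized table, read with its columns as named, was added as an alternative after the data were seen. Its reads gave 0 calls of miRNA levels (54 miRNA at an unadjusted p under 0.05 in edgeR) and 2 of neighbouring pairs, log2 fold changes of 0.16 for miR-221-3p, 1.04 for miR-222-3p, 0.010 for miR-221-5p and 0.23 for miR-222-5p, and a guide ratio difference of 0.86, not among those pairs. The cause of these changes was not tested beyond the mismatch of columns. Depth limits miR-222-5p most, with 25 to 61 reads.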
